A study of Mus musculus with 6 samples.

Results

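The genes described are 42 genes of lysosomal enzymes and lysosomal membrane proteins, chosen by name: 11 proteases, 16 glycosidases and sulfatases, 7 genes of lipid handling, 7 membrane proteins and the progranulin gene Grn. The list was made with earlier results of these data known, so the shares set beside all genes below are descriptive.  They were not obtained from an independent choice of genes. The 42 genes were taken from the 19938 genes that the platform annotation names by 1 symbol, and of several probesets of a gene the brightest on average was kept, which touched only Arsb among the 42. All 42 were among the 11024 genes tested, and each had a log2 intensity above 7 on every array (the lowest value was 7.93, for Arsa). The study is about adipose precursors (APs), the stromal cells from which new adipocytes arise, and about what Hmox1, the gene of the heme-degrading enzyme heme oxygenase-1 (HO-1), does in them during obesity. RNA from perigonadal visceral fat (viWAT) of male C57BL/6J mice on a high-fat diet (HFD) was measured on 6 Affymetrix arrays, 3 for each genotype, and each array took a pool of 2 mice. Hmox1f/f PdgfraCre mice (arrays 1 to 3) have loxP sites around exon 2 of both Hmox1 copies and a Cre transgene driven by the promoter of Pdgfra, a receptor gene of APs, and Hmox1f/f mice (arrays 4 to 6) carry the same floxed gene and no Cre. Both groups were placed on HFD at 6 weeks of age and kept on it for 8 weeks. An effect of Cre itself and an effect of losing Hmox1 cannot be told apart, since the controls have no Cre.

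Lysosomes are the acidic compartments in which cells break down proteins, glycans and lipids taken up by endocytosis or delivered by autophagy. Their hydrolases receive a mannose 6-phosphate tag in the Golgi and are carried to the lysosome by receptors, and many of their genes share an E-box element, called CLEAR, that is bound by the factor TFEB and its relatives. In obese fat, macrophages around dying adipocytes take up lipid and are rich in lysosomes, so that many of the genes below are high in macrophages, while every nucleated cell type of the tissue uses most of them.

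The labels name the material as APs isolated with beads and also as viWAT. The adipocyte gene Adipoq was at log2 intensities from 12.74 to 13.10 and the AP gene Pdgfra from 10.05 to 10.36 over the 6 arrays, and of 22 macrophage markers 21 passed the filter, so genes of adipocytes and macrophages were measured beside those of APs. The paper reports high Pdgfra with low CD68 and AdipoQ in its bead-purified APs, by Q-PCR. These arrays do not match that description, with Cd68 at 12.36 to 13.09 beside the Adipoq values above. In bulk RNA, fewer cells of a type and less RNA per cell cannot be told apart. Hmox1 was at 11.25, 11.36 and 10.74 with Cre and at 11.90, 11.63 and 12.32 in the controls, a difference of -0.83 ± 0.23 (SE, adjusted p = 0.266 by limma), and all arrays with Cre lay below all controls. Where the probes of its probeset lie relative to exon 2 was not analysed here. All differences are log2 intensity in Hmox1f/f PdgfraCre minus Hmox1f/f, values on arrays are given in the order 1 to 3 with Cre and 4 to 6 in the controls, and the labels name no batch or litter, so that p-values measure the spread between these arrays.

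All 42 lysosomal genes had a lower mean with Cre, where 57.4% of the 11024 genes tested did. The median difference of the 42 was -0.27, against -0.03 over all genes tested, and the largest, of the collagen-degrading protease gene Ctsk, was 1.60-fold. In 30 of the 42 (71.4%) every array with Cre was below every control array, a pattern that 21.2% of all genes tested showed. With an unadjusted p under 0.05 by limma, 25 of the 42 (59.5%) were lower with Cre, against 12.8% of all genes, and none of the 42 was higher, against 3.03% of all genes. No lysosomal gene passed an adjusted p of 0.05, nor did any of the genes tested (0%). The adjusted p of the 42 ran from 0.266 to 0.998, so the lower values are described here as measured differences and not as changes called by the test. The count of 25 dropped to 15 on leaving out array 1, to 12 on leaving out array 4 and to 9 on leaving out array 6. The share over all genes, 12.8% with all arrays, dropped too, to 7.38%, 7.93% and 7.31%. Leaving out arrays 1 and 6 together, which in each genotype had the most signal from epididymal genes, gave a count of 4, where 3.18% of all genes were lower at the same p. The median stayed between -0.32 and -0.21 whichever array was left out.

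**Figure D1:**
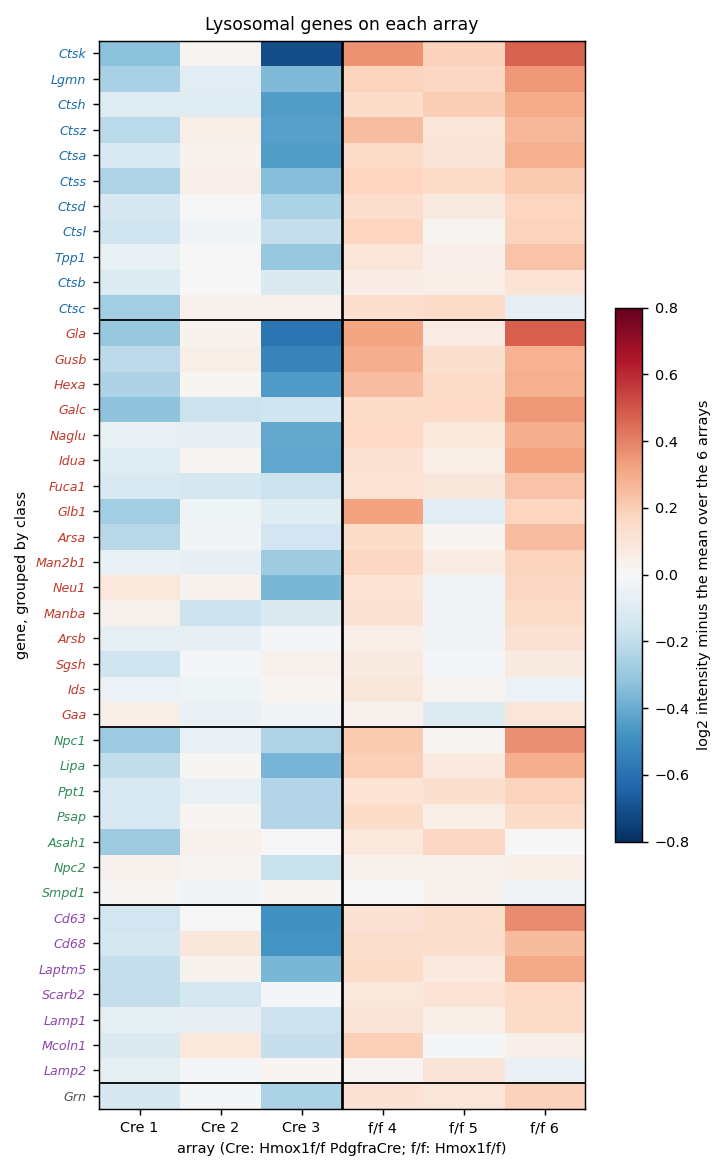
Log2 intensity of each of the 42 genes (rows, grouped by class and sorted by difference) on each array (columns) minus the gene's mean over the 6 arrays, blue below and red above it. The 3 columns without Cre are mostly red, Hmox1f/f PdgfraCre 3 holds the darkest blue and Hmox1f/f PdgfraCre 2 is the palest of the arrays with Cre.

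The arrays with Cre were not alike. The mean deviation of the 42 genes from their own averages was -0.14, -0.02 and -0.25 with Cre and 0.14, 0.07 and 0.20 in the controls. Hmox1f/f PdgfraCre 3 was the lowest of all arrays for 28 of the genes and Hmox1f/f PdgfraCre 1 for 11, among them Ctsc, Galc, Npc1, Asah1, Lamp2 and Scarb2. Hmox1f/f PdgfraCre 2 was the highest of the arrays with Cre for 27 genes. Hmox1f/f 6 was the highest of all arrays for 34 genes, Hmox1f/f 4 for Glb1, Gusb, Ids and Mcoln1, and Hmox1f/f 5 for Ctsc, Asah1, Smpd1 and Lamp2. No gene was highest on an array with Cre.

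The mean of macrophage markers moved with many but not all of these genes from array to array. Its correlation with each gene over the 6 arrays had a median of 0.92. That correlation was above 0.9 for 24 of the 42, and ran from -0.30 for Smpd1 to 0.997 for Hexa. The difference between the genotypes is part of these correlations. The mean log2 intensity of 21 macrophage markers, none of them among the 42 genes, was 10.54, 10.83 and 10.34 with Cre and 11.08, 11.01 and 11.06 in the controls, which is the order of the lysosomal means among the arrays with Cre but not among the controls. Markers whose products may also lie in lysosomes were not left out of this mean, so it need not be independent of lysosomal expression. All 21 markers had a lower mean with Cre, 15 of them with an unadjusted p under 0.05 by limma. Of all genes tested, 57.4% had a lower mean and 12.8% were lower at this p. The median difference of the markers was -0.42, and no marker was at 0 (the lowest value was 7.19, for Clec4d). With the marker mean of each array as a covariate, 25 of the 42 lysosomal genes were lower with Cre and 17 higher, where 64.8% of all genes tested were lower, and the median difference was -0.03, against -0.07 over all genes. None of the 42 then had an unadjusted p under 0.05, against 2.34% of all genes in the lower direction. The marker means of the groups do not overlap, so this fit separates them only through the spread within the groups, and the median SE of the 42 differences was 0.146 in place of 0.10. Of the 25 genes still lower, 13 had a difference more than 1.5 times smaller, 8 (Ctsc, Galc, Manba, Arsb, Sgsh, Fuca1, Asah1 and Scarb2) had a difference within 1.5 times, and 4 that were near 0 in the plain fit (Gaa, Ids, Smpd1 and Lamp2) were further below 0. For Ctsc (-0.13 ± 0.24, SE), Sgsh (-0.10 ± 0.15) and Asah1 (-0.12 ± 0.22) this difference was smaller than its SE. In the plain fit Ctsc, Manba, Arsb, Sgsh and Asah1 had unadjusted p from 0.118 to 0.290 by limma.

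Markers of other cell types also differed with genotype. All 12 adipocyte markers tested were higher with Cre (median 0.16, 5 with an unadjusted p under 0.05 by limma). So were all 8 endothelial markers (median 0.37, 5 with such a p). Of the 11024 genes tested, 4697 were higher, and 3.03% were higher at this p. All 5 mast cell markers were lower (median -0.87, 4 with such a p), where 57.4% of all genes were lower and 12.8% lower at this p. Of 10 AP markers, 6 were lower and 1 had such a p, both near those shares. The mean deviation of the mast cell markers was -0.34, -0.09 and -0.72 with Cre and 0.35, 0.26 and 0.55 in the controls. This is the order of the lysosomal means within both groups. The part of adipocyte, endothelial and mast cell RNA in the lysosomal values was not tested.

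**Figure D2:**
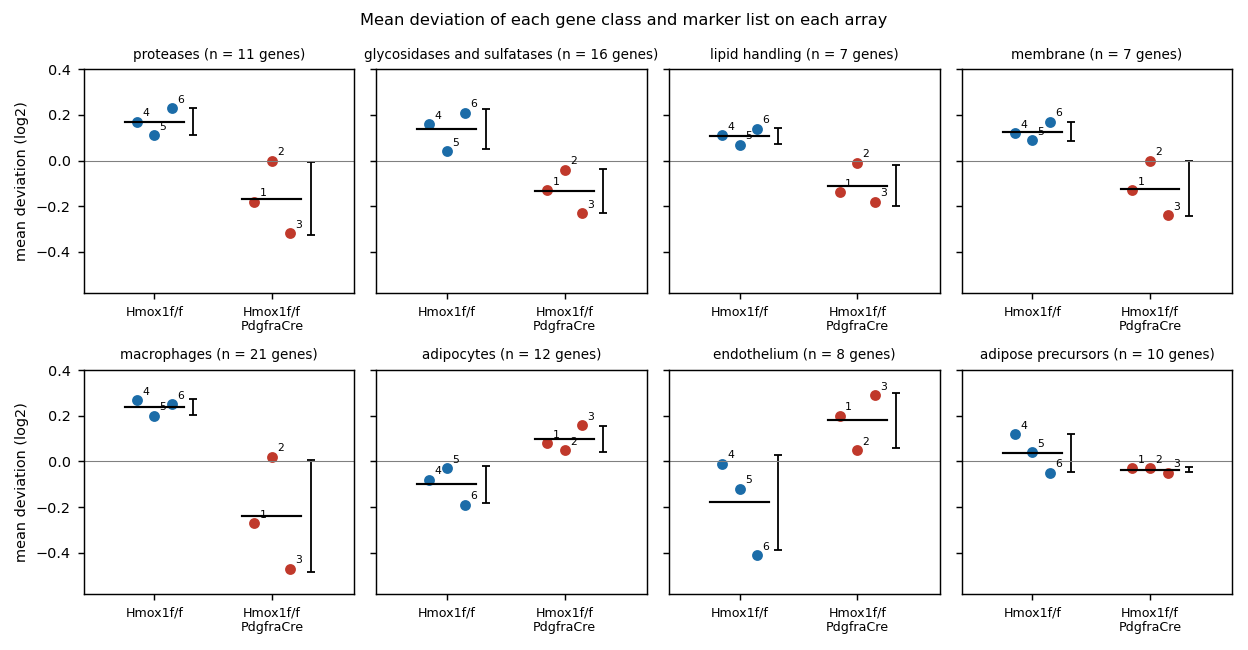
Mean deviation (log2, vertical axis) of each of 4 classes of lysosomal genes and 4 marker lists on each array, labelled by array number, from the gene's mean over the 6 arrays, with the mean (bar) and SD (whisker) of each genotype. In all 4 lysosomal classes and in the macrophage panel the arrays with Cre lie below the controls, and among them array 2 is uppermost and array 3 lowest.

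Of the 42 genes, 38 have a promoter in the RefSeq-based table used here (GRCm38.p6), which holds 300 bases from 250 before to 50 after a transcription start, with 41 promoters in all because Ctsa, Lgmn and Psap have more than 1. Ctsb, Ctsh, Npc1 and Asah1 are not in the table. The 6 letters CACGTG, the E-box core at the centre of the CLEAR element, were found in 12 of the 41 promoters (29.3%), against 7.15% of all 32851 promoters in the table. The genes were Ctsa, Ctsd, Ctsl and Lgmn among the proteases, Arsa, Gaa, Gla, Glb1, Naglu and Sgsh among the glycosidases and sulfatases, and Lamp1, with 4 matches, and Mcoln1 among the membrane proteins. The longer palindrome TCACGTGA, which contains the former, was found in 4 promoters (9.76%), against 0.974% of all. Both strands were searched, and both words read the same on either strand. The stretches of these 4 promoters around the matches are shown because they hold the longest form of the element searched, with each CACGTG in capitals, 5′ to 3′ on the strand of the gene.

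Ctsa (chr2:164833741-164833792, plus strand): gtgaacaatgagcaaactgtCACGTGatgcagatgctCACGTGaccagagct

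Ctsd (chr7:142387900-142388077, minus strand): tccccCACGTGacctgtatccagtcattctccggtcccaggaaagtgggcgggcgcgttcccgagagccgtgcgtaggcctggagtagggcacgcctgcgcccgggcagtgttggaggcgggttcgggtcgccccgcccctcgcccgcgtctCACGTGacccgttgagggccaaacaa

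Gla (chrX:134601174-134601252, minus strand): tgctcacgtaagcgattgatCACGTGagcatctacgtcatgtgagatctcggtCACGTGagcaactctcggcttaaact

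Mcoln1 (chr8:3500428-3500499, plus strand): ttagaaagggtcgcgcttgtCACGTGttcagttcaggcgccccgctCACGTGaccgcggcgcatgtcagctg

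Genes with and without the core had medians close to each other. The median difference was -0.26 for the 12 genes with CACGTG and -0.27 for the other 26 with a promoter in the table. It was -0.31 for the 4 with TCACGTGA and -0.27 for the 34 without it. Of these 4, Gla was the second largest difference of the 42 and Mcoln1 was among the smaller. GAGGAAGT, a site of the type bound by the macrophage factor PU.1 (either strand), was found in 4 of the 41 promoters (9.76%), those of Ctsc, Ctss, Gla and Gusb, against 3.20% of all. The median difference of these 4 was -0.41, against -0.27 for the 34 without it. The 4 ran from -0.14 for Ctsc to -0.57 for Gla, which also holds TCACGTGA, and whether they differ from the rest was not tested. A match in these letters is a description and not a bound site.

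**Figure D3:**
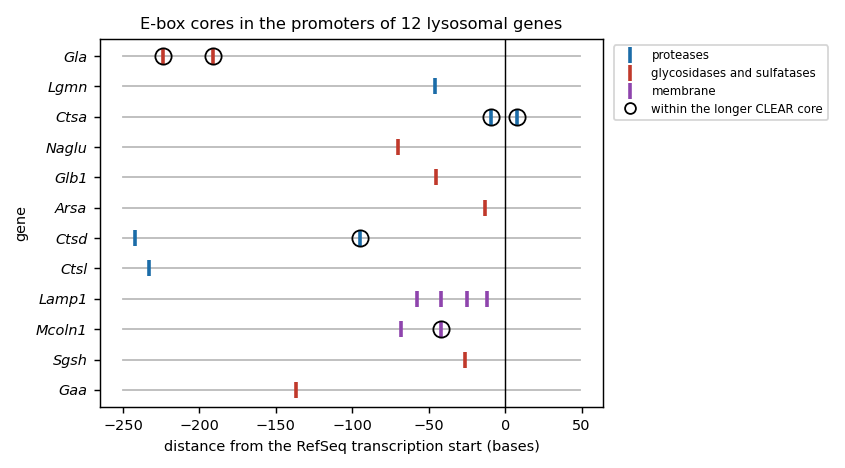
Position of each CACGTG core (coloured by class) relative to the RefSeq transcription start (horizontal axis, bases) in the promoters of 12 lysosomal genes, with rings around cores that lie in the longer TCACGTGA. The genes run from Gla at the top, with the largest difference between genotypes, to Gaa at the bottom, and Lamp1 has 4 cores before its start.

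The 11 proteases had the largest median difference of the classes, -0.36, and all 11 had a lower mean with Cre. Of them, 8 had an unadjusted p under 0.05 by limma and 10 had all arrays with Cre below all controls, with adjusted p from 0.266 to 0.550. Of all genes tested, 12.8% were lower at this p and 21.2% had all arrays with Cre below all controls. Without Hmox1f/f PdgfraCre 3 the median was -0.23, and with the macrophage covariate it was -0.0095. Ctsk encodes cathepsin K, which degrades collagen. It read 10.48, 10.83 and 10.10 with Cre and 11.17, 10.99 and 11.28 in the controls. The difference was -0.68 ± 0.19 (SE), its 95% interval ran from -1.14 to -0.22 and the unadjusted p was 0.0105 by limma. All arrays with Cre lay below the controls, array 2 by the least, and with the macrophage covariate the sign turned (0.03 ± 0.16).

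Lgmn encodes legumain, the asparaginyl endopeptidase that cuts cathepsins into their mature chains. It was at 11.86, 12.04 and 11.77 with Cre and at 12.30, 12.29 and 12.47 in the controls. The difference of -0.46 ± 0.10 (SE) had the smallest p of the proteases, 0.00293 unadjusted by limma, and was -0.20 ± 0.15 with the macrophage covariate. Ctsh, the aminopeptidase cathepsin H, gave 10.55, 10.55 and 10.20 with Cre and 10.79, 10.84 and 10.94 without it. Here too the groups did not overlap, with array 3 far below the others, and the difference was -0.42 ± 0.12.

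Ctsz, the carboxypeptidase cathepsin Z, was at 11.88, 12.14 and 11.66 with Cre and at 12.34, 12.19 and 12.36 in the controls, a difference of -0.41 ± 0.13 (SE). Arrays 2 and 5 were the closest of the 2 groups, 0.05 apart. Ctss encodes cathepsin S, which trims the invariant chain of MHC class II in antigen-presenting cells. Its values were 12.38, 12.66 and 12.28 with Cre and 12.79, 12.77 and 12.83 without, and the difference was -0.36 ± 0.11. The controls were tight, with an SD of 0.028 (n = 3), against 0.199 with Cre. Both Ctsz and Ctss changed sign with the macrophage covariate, to 0.07 and 0.02.

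Ctsl encodes cathepsin L, a broad endopeptidase whose promoter holds 1 CACGTG. It read 12.20, 12.34 and 12.17 with Cre and 12.53, 12.38 and 12.54 in the controls, a difference of -0.25 ± 0.08 (SE). Among the proteases with smaller or less even differences, Ctsa, the protective protein of the sialidase and beta-galactosidase complex, differed by -0.36 ± 0.13, and the aspartic protease gene Ctsd, with its 2 cores shown above, by -0.26 ± 0.09. The tripeptidyl peptidase gene Tpp1 (-0.24) and the cathepsin B gene Ctsb (-0.15) had all arrays with Cre below the controls but an unadjusted p of 0.0621 and 0.0762 by limma. Ctsc encodes the dipeptidyl peptidase that activates granule proteases, and it was the protease with the smallest difference. At 10.84, 11.15 and 11.15 with Cre and 11.25, 11.27 and 11.05 in the controls its groups overlapped. Its difference of -0.14 had an interval from -0.42 to 0.14 and was -0.04 without Hmox1f/f PdgfraCre 1.

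**Figure D4:**
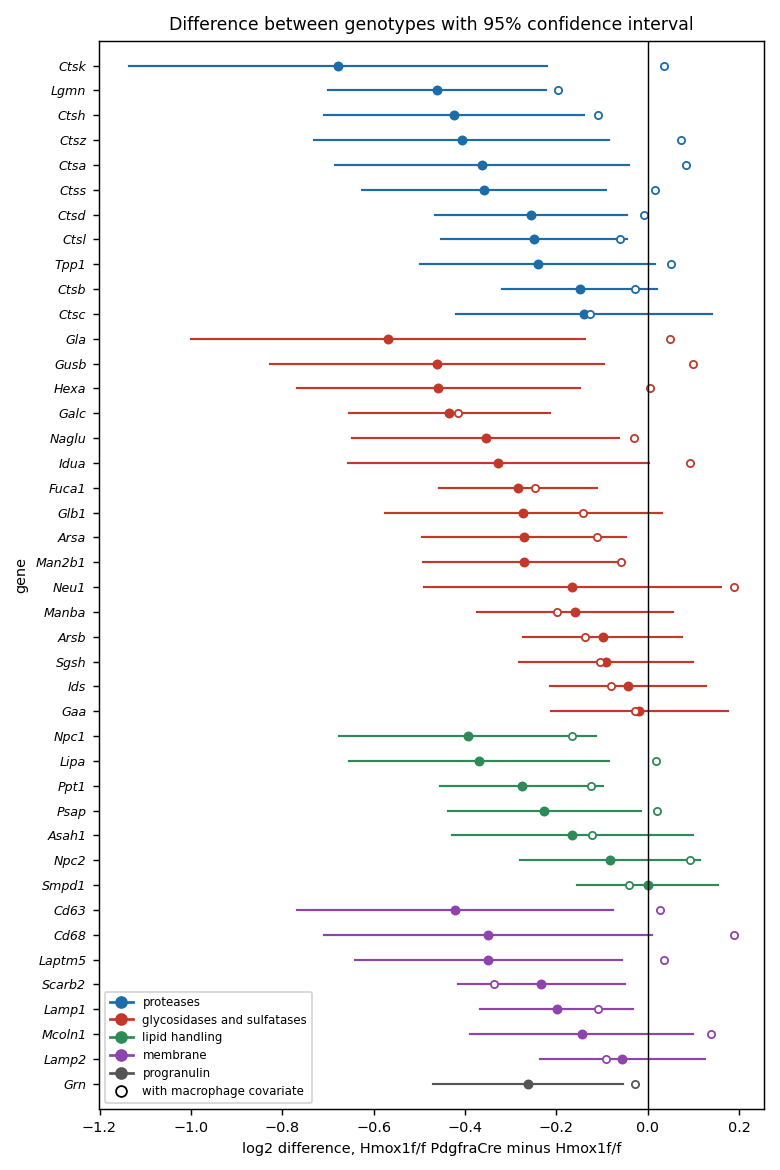
Difference between genotypes (log2, horizontal axis) of each of the 42 genes with its 95% confidence interval by limma (filled points and bars, coloured by class), and the difference once the mean of the macrophage markers is a covariate (open points). All filled points lie at or below 0, while the open points scatter on both sides of it, with Galc and Scarb2 furthest below.

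The 16 glycosidases and sulfatases strip sugars and sulfates from glycolipids, glycoproteins and glycosaminoglycans. All had a lower mean with Cre, with a median of -0.27. An unadjusted p under 0.05 by limma was found for 8 (12.8% of all genes tested were lower at this p). All arrays with Cre were below all controls for 9 (21.2% of all genes tested). With the macrophage covariate the median was -0.07. Gla encodes alpha-galactosidase A, the enzyme missing in Fabry disease. It was at 10.13, 10.46 and 9.85 with Cre and at 10.75, 10.50 and 10.91 in the controls. Its difference of -0.57 ± 0.18 (SE) was 1.48-fold, with arrays 2 and 5 only 0.04 apart and a value of 0.05 with the covariate.

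Galc encodes the galactocerebrosidase missing in Krabbe disease, and it had the smallest unadjusted p of the 42 genes, 0.00264 by limma. Its arrays read 8.96, 9.11 and 9.12 with Cre and 9.43, 9.44 and 9.63 without. The groups were well apart, array 1 and not array 3 was the lowest, and the difference of -0.43 ± 0.09 (SE) was -0.42 ± 0.18 with the macrophage covariate. Fuca1, the alpha-fucosidase gene, had a similar course. It gave 10.47, 10.45 and 10.42 with Cre and 10.70, 10.68 and 10.82 in the controls. The arrays with Cre were tight, with an SD of 0.028 (n = 3), and the difference was -0.28 ± 0.07 in the plain fit and -0.25 ± 0.14 with the covariate.

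Hexa encodes the alpha chain of beta-hexosaminidase A, which degrades GM2 ganglioside. Its values were 11.23, 11.49 and 11.02 with Cre and 11.72, 11.63 and 11.76 without, a difference of -0.46 ± 0.13 (SE) that was 0.0050 with the covariate. Gusb, the beta-glucuronidase gene, was at 11.00, 11.26 and 10.68 with Cre and at 11.50, 11.34 and 11.49 in the controls, a difference of -0.46 ± 0.15 that turned to 0.10 ± 0.13. In both genes array 2 sat close to the controls and array 3 far below. Man2b1, the alpha-mannosidase gene, read 11.15, 11.14 and 10.92 with Cre and 11.37, 11.26 and 11.38 in the controls. Its groups did not overlap, with a difference of -0.27 ± 0.09.

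The arylsulfatase A gene Arsa (-0.27 ± 0.09), whose enzyme degrades sulfatide, also had an unadjusted p under 0.05 by limma. So did Naglu (-0.35 ± 0.12), whose enzyme degrades heparan sulfate. Another 8 did not. Idua, for alpha-L-iduronidase, differed by -0.33 with no overlap and an unadjusted p of 0.0512 by limma. The beta-galactosidase gene Glb1 differed by -0.27 with overlap and an unadjusted p of 0.0702 by limma. Differences of the sialidase gene Neu1 (-0.17), the beta-mannosidase gene Manba (-0.16), the sulfatase genes Arsb (-0.10) and Sgsh (-0.09) and the iduronate sulfatase gene Ids (-0.04) were smaller, and their groups overlapped. The other probeset of Arsb gave -0.0083 ± 0.11 (SE). Gaa encodes the acid alpha-glucosidase that degrades glycogen, the enzyme missing in Pompe disease. It was at 10.16, 10.06 and 10.09 with Cre and at 10.15, 10.01 and 10.21 in the controls. Its groups were interleaved, with a difference of -0.02 and an interval from -0.21 to 0.18, although its promoter carries the core.

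Of the 7 genes of lipid handling, all had a lower mean with Cre, 4 with an unadjusted p under 0.05 by limma, and 5 had groups that did not overlap. The shares over all genes tested were 12.8% lower at this p and 21.2% with all arrays with Cre below all controls. The median was -0.23, and -0.04 with the macrophage covariate. Npc1 encodes the membrane protein that exports cholesterol from the lysosome. It read 10.25, 10.49 and 10.30 with Cre and 10.75, 10.56 and 10.91 in the controls, a difference of -0.39 ± 0.12 (SE). Its soluble partner Npc2, which hands cholesterol to it, was at 11.74, 11.73 and 11.53 with Cre and at 11.74, 11.74 and 11.76 without. For Npc2 the groups were apart only beyond the digits given, the difference of -0.08 had an interval from -0.28 to 0.11, and it was -0.02 without Hmox1f/f PdgfraCre 3. Whether Npc1 and Npc2 differed from each other in this was not tested.

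Lipa encodes the acid lipase that cleaves cholesteryl esters and triglycerides taken into the lysosome. It gave 12.74, 12.95 and 12.57 with Cre and 13.13, 13.02 and 13.23 in the controls. The difference was -0.37 ± 0.12 (SE), with no overlap, and it was 0.02 with the covariate. Psap, the precursor of the saposins that present sphingolipids to their enzymes, was at 13.42, 13.56 and 13.31 with Cre and at 13.69, 13.59 and 13.69 without, a difference of -0.23 ± 0.09. Ppt1 encodes a thioesterase that removes palmitate from proteins. With 10.28, 10.34 and 10.17 against 10.51, 10.53 and 10.58 it had the smallest p of the class, 0.00875 unadjusted by limma, for a difference of -0.28 ± 0.07.

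The genes of the sphingolipid enzymes Asah1 and Smpd1 did not show this separation. Asah1, the acid ceramidase gene, read 10.76, 11.08 and 11.05 with Cre and 11.13, 11.21 and 11.04 in the controls. Its difference of -0.165 ± 0.11 (SE) rested on array 1, and it was -0.06 without it. Smpd1, the acid sphingomyelinase gene, was at 10.00, 9.97 and 10.00 with Cre and at 9.99, 10.02 and 9.96 without. Its 6 values lay within 0.06 of each other, with a difference of -0.00036 and an interval from -0.15 to 0.15, so that a shift of the size seen for Ctsk or Gla lies outside the interval.

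The 7 membrane proteins had a median difference of -0.23 (0.03 with the macrophage covariate), all with a lower mean. Of them, 4 had an unadjusted p under 0.05 by limma and 5 were without overlap. The shares over all genes tested were 12.8% lower at this p and 21.2% with all arrays with Cre below all controls. Lamp1 and Lamp2 encode the heavily glycosylated proteins that line the lysosomal membrane. Lamp1 was at 12.31, 12.32 and 12.22 with Cre and at 12.49, 12.44 and 12.53 in the controls, a difference of -0.20 ± 0.07 (SE) with no overlap. Lamp2 read 12.00, 12.06 and 12.09 with Cre and 12.10, 12.18 and 12.02 in the controls. Its groups overlapped, and the difference of -0.06 had an interval from -0.24 to 0.13, and it was -0.02 without Hmox1f/f 5 and -0.10 without Hmox1f/f 6.

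Scarb2 encodes LIMP-2, which carries glucocerebrosidase to the lysosome. It gave 10.43, 10.48 and 10.61 with Cre and 10.71, 10.73 and 10.78 without. The groups did not overlap, array 3 was the highest of those with Cre, and the difference of -0.23 ± 0.08 (SE) was -0.34 ± 0.14 with the macrophage covariate. Mcoln1, the gene of the lysosomal calcium channel TRPML1, read 9.73, 9.93 and 9.66 with Cre and 10.04, 9.83 and 9.89 in the controls. Its array 2 lay above 2 of the controls, and the difference of -0.145 ± 0.10 was -0.22 without that array and -0.09 when array 3 or array 4 was left out.

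Cd68 and Laptm5 are abundant in macrophages and other blood cells, and the tetraspanin Cd63 is found in the late endosomes of many cell types. Cd68 was at 12.70, 12.93 and 12.36 with Cre and at 12.98, 12.97 and 13.09 in the controls, a difference of -0.35 ± 0.15 (SE) with an unadjusted p of 0.055 by limma. Without Hmox1f/f PdgfraCre 3 it was -0.20. Array 2 was 0.04 below the nearest control, so that the separation was narrow. Laptm5 read 12.63, 12.84 and 12.45 with Cre and 12.96, 12.89 and 13.12 without, a difference of -0.35 ± 0.12. Cd63 gave 9.55, 9.70 and 9.22 with Cre and 9.82, 9.84 and 10.08 in the controls, the largest difference of the class at -0.42 ± 0.14. All 3 had the opposite sign with the covariate (0.19, 0.04 and 0.03 for Cd68, Laptm5 and Cd63).

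Grn encodes progranulin, which is secreted and also processed in the lysosome into granulins. It was at 12.99, 13.10 and 12.86 with Cre and at 13.23, 13.21 and 13.30 in the controls. All arrays with Cre were below, by -0.26 ± 0.09 (SE), and with the covariate the difference was -0.03.

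Lysosomal genes outside the 42 were read from lists of the same pathway, whose counts stand against 57.4% of all genes with a lower mean and 12.8% also with an unadjusted p under 0.05 by limma. Of 30 further enzymes and soluble proteins, 22 were tested, 21 had a lower mean with Cre, 12 had an unadjusted p under 0.05 by limma in that direction and none in the other, and the median was -0.23. The dipeptidyl peptidase gene Dpp7 (-0.67 ± 0.15, SE), the galactosamine sulfatase gene Galns (-0.56 ± 0.13), the acid phosphatase gene Acp2 (-0.30 ± 0.08) and Smpdl3a (-0.29 ± 0.07) had the smallest p. Among 27 tested membrane proteins and transporters, 22 had a lower mean, 10 with such a p, and the median was -0.18. The cystine exporter gene Ctns (-0.38), the chloride-proton exchanger gene Clcn7 (-0.45) and the channel genes Tpcn2 (-0.39) and Mcoln2 (-0.36) had the smallest p of this list. All 4 tested inhibitors of cathepsins had a lower mean, Cstb by -0.46, Serpinb1a by -0.37 and Serpinb6a by -0.30, each with such a p, and Cst3 by -0.12.

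The machinery around the lysosome had medians nearer to 0 than the 42 genes, and its counts are read against the same 57.4% and 12.8% of all genes. Of 17 genes of delivery to the lysosome, 13 had a lower mean and 4 an unadjusted p under 0.05 by limma, with a median of -0.13. These were the adaptor gene Ap1b1 (-0.33), Cln8 (-0.53), which helps enzymes leave the endoplasmic reticulum, the mannose 6-phosphate receptor gene Igf2r (-0.31) and the retromer gene Vps29 (-0.25). Of 17 genes of the TFEB family and of mTORC1 at the lysosome, 14 had a lower mean and 6 such a p, with a median of -0.19, and the smallest p belonged to the folliculin gene Flcn (-0.30), Fnip2 (-0.40), Tfec (-0.44) and Mitf (-0.34). Of 16 autophagy genes, 12 had a lower mean and 3 such a p, a count near that share, and their median of -0.06 was close to that of all genes tested. The 3 were Gabarapl2 (-0.30), Gabarapl1 (-0.32) and the cargo receptor gene Sqstm1 (-0.24), and Atg7 (-0.14) followed with a p of 0.0839 unadjusted by limma. No gene of these lists passed an adjusted p of 0.05, and none was higher with such an unadjusted p. With the macrophage covariate the medians of the 6 lists lay between -0.09 and -0.05.

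**Figure D5:**
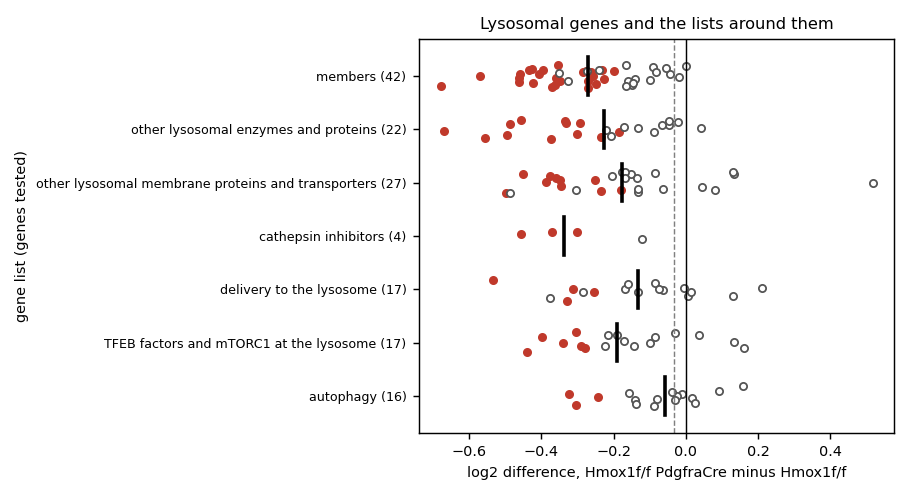
Difference between genotypes (log2, horizontal axis) of the 42 lysosomal genes and of each tested gene of 6 related lists, filled red with an unadjusted p under 0.05 by limma and open otherwise, with the median of each list (black bar) and of all genes tested (dashed line, -0.03). The medians run from -0.34 for the cathepsin inhibitors to -0.06 for autophagy, and all red points lie below 0.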

How the data were processed

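Total RNA (200 ng per array) of 6 pools was labelled for Affymetrix arrays. The deposited values are intensity values on a linear scale, whole numbers from 8 to 20701, which per the submitters' processing notes the authors made by robust multi-array average (RMA) in Affymetrix Expression Console 1.1. RMA corrects background, applies quantile normalization and summarises probes, so it compresses differences of dim probesets and hides a shift shared by most genes. The genome build of the probe design is not given in the sources used here. Log2 of the deposited values was taken. Of 35556 probesets, 21789 have 1 gene symbol in the platform annotation, 1621 have several and 12146 are unnamed here. By Entrez number 21698 matched RefSeq.

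Genotypes were compared in R 4.3.3 with limma 3.58.1 (lmFit, eBayes, two-sided), on all 19938 genes and 6 arrays, in a model that held genotype alone. Genes were tested where at least 3 arrays exceeded a log2 intensity of 7 (11024 genes), and p-values were adjusted over these by Benjamini-Hochberg. With 3 arrays a group, an exact permutation test of 1 gene could not go below 0.1. The fit was run on simulated data with independent noise for each gene. That simulation holds no shift shared by genes on an array, so it does not bear on such shifts here. The number of arrays limits the precision. The alternatives left the filter out, set it at 6 or added the mean absolute deviation step of the methods, normalized the quantiles again, centred arrays on their medians, used arrayWeights or a trended and robust eBayes, averaged the probesets of a gene, took macrophage markers as a covariate, and left out each array. Members, lists and settings were chosen with earlier results of these data known. Values on each array are given for Hmox1, for up to 6 genes of each class with the smallest p and for the gene of each class with the highest difference. From other lists up to 4 genes with the smallest p are named. Promoters were searched in Python 3.11.15 and figures drawn with matplotlib 3.10.9.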

Additional observations from a re-analysis of the deposited data

How the results depend on the processing

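No lysosomal gene passed an adjusted p of 0.05 by limma under any setting tried. The smallest adjusted p of a lysosomal gene ran from 0.0897 with the filter of the methods to 0.940 with the macrophage covariate. In the plain fit 25 lysosomal genes had an unadjusted p under 0.05. The share of all genes lower at this p, 12.8% in the plain fit, moved as well and follows each count. The count was 25 with no filter (7.5%), a filter at 6 (10.2%) or the mean of all probesets (12.9%), 19 with quantile normalization (9.17%), 24 with median centring (10.4%), 29 with trend and robust moderation (13.6%) and 28 with arrayWeights (17.2%). Leaving out or lowering the filter could not change the count, since the fit came before the filter and all 42 genes passed it. Averaging probesets changed the values of Arsb alone among the 42. The filter of the methods kept 19 of the 42 genes and gave 16, where 26.1% of the 3351 genes kept were lower at this p, with medians of -0.39 for all, -0.39 for glycosidases and sulfatases, -0.38 for lipid handling and -0.35 for membrane proteins. That filter keeps the genes that vary most. The macrophage covariate gave 0, with medians of -0.0300 for all, -0.0095 for proteases, -0.0707 for glycosidases and sulfatases, -0.0413 for lipid handling and 0.0261 for membrane proteins. Leaving out each array in turn gave counts from 9 to 28, with shares over all genes from 7.31% to 13.7%, and medians from -0.32 to -0.21 for all and from -0.47 to -0.23 for proteases. Leaving out Hmox1f/f PdgfraCre 1 and Hmox1f/f 6 together, chosen after the data were seen because their means of 5 epididymal genes (9.64 and 7.20) were the highest of their groups, gave 4, against 3.18% of all genes, with all 42 genes lower and a median of -0.24.

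Of 450 values of named genes under these settings, 428 kept their sign and 22 reversed. Many of the 428 could not have reversed. The changes of filter and the trended and robust eBayes act after the fit, so they left each difference as in the plain fit. Averaging probesets altered only Arsb, which is not among the genes counted here. The tally is therefore not a measure of how stable the signs are. With quantile normalization Gaa was 0.0199, Smpd1 0.0369 and Lamp2 0.0029, with median centring Smpd1 was 0.0172, and with arrayWeights Gaa was 0.0620. With the macrophage covariate Ctsk was 0.0347, Ctss 0.0162, Ctsz 0.0735, Hexa 0.0050, Gla 0.0489, Gusb 0.0998, Npc2 0.0922, Lipa 0.0175, Psap 0.0205, Mcoln1 0.138, Cd68 0.189, Cd63 0.0261 and Laptm5 0.0356. With each array left out in turn Gaa ran from -0.0734 (without Hmox1f/f 5) to 0.0249 (without Hmox1f/f 6) and Smpd1 from -0.0143 (without Hmox1f/f 6) to 0.0154 (without Hmox1f/f 5). The cause of these reversals was not tested. No paired analysis was possible because the array numbers, 1 to 3 with Cre and 4 to 6 without, are not shared between the groups.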

Other observations

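Another 3 further marker lists were read on the same arrays. All 5 mesothelial markers had a lower mean with Cre, 1 with an unadjusted p under 0.05 by limma, with a median of -0.21. Of all genes tested, 57.4% had a lower mean, 12.8% were lower at this p and 3.03% were higher at it. Of 5 mural cell markers 2 were lower and 3 higher, with 1 such p in each direction, and Hmox1f/f 6 was the lowest array, with a mean deviation of -0.55. Of the lymphocyte markers 2 passed the filter, with differences of -0.07 and 0.17.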
